A study of Mus musculus with 6 samples.

Results

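The replication-dependent histone genes were taken as all gene symbols that begin with Hist1h, Hist2h, Hist3h or Hist4h, which gave 68 of the 23420 genes in the deposited tables. By symbol, 6 of them belong to linker histone H1, 18 to H2A, 19 to H2B, 12 to H3 and 13 to H4. The H2B symbols include Hist3h2bb-ps, which is named as a pseudogene. They were read in LSK cells of mouse bone marrow, the sorted cells without lineage markers that carry Sca-1 and c-Kit, among which are blood stem cells and multipotent progenitors. The libraries were 3 from bcat(ex3)osb mice, in which β-catenin signalling is always on in osteoblasts, and 3 from WT littermates, 1 library per mouse. Per the labels the altered signalling is in osteoblasts, which are not the cells sequenced; what restricts it to osteoblasts, and the age and sex of the mice, are not given there. The bcat(ex3)osb mice are called mutant below.

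Nucleosomes wrap DNA around a core of H2A, H2B, H3 and H4, and H1 binds the linker between cores. Replication-dependent histone genes supply these proteins in S phase. They lie in clusters, lack introns, and mostly give mRNAs that end in a conserved stem-loop in place of a poly(A) tail, which the stem-loop binding protein SLBP recognises. The replacement variants, such as H3.3 and H2A.Z, are made from other, polyadenylated mRNAs through the whole cell cycle. The libraries were made with a total RNA kit, per the labels' protocols, so a poly(A) tail was not stated as a condition for entering them.

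The 3′ stem-loop that defines the family was searched on the sense strand of GENCODE M21 transcripts (GRCm38, the assembly also called mm10) as a 6-base arm that starts with GG and ends with T, a loop of TTT and any base, and a second arm that pairs perfectly with the first. It was found in 44 of the 68 members (64.7%) and in 13 of 55273 other genes (0.0235%). By class it was found in 4 of 6 H1, 11 of 18 H2A, 10 of 19 H2B, 8 of 12 H3 and 11 of 13 H4 genes. Several GENCODE models without a match, such as those of Hist1h2bl, Hist1h2ak and Hist1h4k, were shorter than the RefSeq gene. Such models may hold only the coding sequence, in which a 3′ stem-loop could not be found. A missing match therefore does not show that a gene lacks the stem-loop, and the shares by class cannot be compared. The forms are shown because they separate H4 from the other classes, with the 4-base loop in capitals.
Hist1h4c, chr13:23698089-23698104, minus strand: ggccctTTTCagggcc
Hist1h4i, chr13:22040966-22040981, minus strand: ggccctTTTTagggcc
Hist1h4b, chr13:23757366-23757381, plus strand: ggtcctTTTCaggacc
Hist1h1e, chr13:23621782-23621797, minus strand: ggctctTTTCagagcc
Hist1h3e, chr13:23561903-23561918, minus strand: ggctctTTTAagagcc
Hist2h2ac, chr3:96220418-96220433, minus strand: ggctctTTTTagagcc
The H4 genes with a match carried the first 3 forms, 7, 2 and 2 of them in the order shown. None of the 33 other matched members had an H4 form; 26 of them had the form of Hist1h1e. In 38 of the 43 members whose stem-loop could be placed on the genome, the RefSeq gene (GRCm38.p6) ended 4 to 6 bases past it. The gene lengths in the deposited tables were multiples of 3 for 48 of the 68 members and under 420 bases for 30, so for many of them it may be a coding length.

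In the promoters, the stretch from 250 bases before to 50 bases after the start in RefSeq (GRCm38.p6), 62 of the 68 members had a sequence. CCAAT, searched on both strands, was present in 50 of 50 promoters outside H4 and in 3 of 12 H4 promoters, against 37.4% of all 32851 promoters. TATAAA was present in 35 of 62 (56.5%), against 13.6% of all promoters. The octamer ATTTGCAT, known from H2B promoters, was in 7 of 18 H2A and 6 of 16 H2B promoters and in 0 of the others, against 1.74% of all promoters. AAACACA, known from H1 promoters, was in 5 of 6 H1 promoters, against 7.18% of all promoters.

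In the genome, H2A and H2B genes formed 13 divergent pairs, head to head, with 164 to 281 bases between their starts. The partner of Hist3h2a was Hist3h2bb-ps, named as a pseudogene. The promoter of the H2A gene of 3 pairs is shown, since each runs into the start of its H2B partner and the pairs differ in the values given below. Matches to CCAAT, to TATAAA and to the octamer, on either strand, are in capitals.
Hist1h2ag (partner Hist1h2bj), chr13:22042900-22043199, minus strand: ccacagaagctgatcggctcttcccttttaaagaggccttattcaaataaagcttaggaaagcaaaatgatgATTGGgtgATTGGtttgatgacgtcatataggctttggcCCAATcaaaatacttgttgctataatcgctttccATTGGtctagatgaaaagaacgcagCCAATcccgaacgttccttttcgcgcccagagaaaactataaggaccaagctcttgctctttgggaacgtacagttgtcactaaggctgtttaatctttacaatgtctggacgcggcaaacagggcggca
Hist1h2ak (partner Hist1h2bn), chr13:21753863-21754162, minus strand: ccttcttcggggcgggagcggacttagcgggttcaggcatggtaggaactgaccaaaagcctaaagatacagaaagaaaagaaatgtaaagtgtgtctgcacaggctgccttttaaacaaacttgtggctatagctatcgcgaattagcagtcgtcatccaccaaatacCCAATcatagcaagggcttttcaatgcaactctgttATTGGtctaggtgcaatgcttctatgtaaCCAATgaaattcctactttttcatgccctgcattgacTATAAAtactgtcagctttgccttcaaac
Hist2h2ac (partner Hist2h2be), chr3:96220831-96221130, minus strand: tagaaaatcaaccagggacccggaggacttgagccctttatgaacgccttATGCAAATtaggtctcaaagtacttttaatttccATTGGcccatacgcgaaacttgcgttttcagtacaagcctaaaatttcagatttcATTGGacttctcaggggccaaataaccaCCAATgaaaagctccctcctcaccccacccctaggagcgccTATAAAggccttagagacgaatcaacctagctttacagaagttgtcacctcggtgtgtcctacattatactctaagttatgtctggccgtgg
All 3 hold CCAAT on both strands, and TATAAA stands in the promoters of Hist1h2ak and Hist2h2ac. The octamer stands in that of Hist2h2ac, on the reverse strand.

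The libraries held 17191996 to 18678599 counts in mutant mice and 15431235 to 19956774 counts in WT mice, with 13423 to 15102 genes detected. Mutant mouse 2 stood at 110 on a first principal component with 50.3% of the variance, and the other 5 libraries between -49.9 and -5.16. Counts of Xist and of Y-linked genes marked mutants 1 and 2 as male and the other 4 mice as female, so sex and genotype can be told apart only through mutant mouse 3. Kit, the receptor of the sort, was read at 345 to 725 CPM (counts scaled to the TMM-adjusted size of the library) in mutant mice and 323 to 1002 CPM in WT mice. Ly6a, which encodes Sca-1, was read at 65.9 to 81.5 CPM in mutant mice and 148 to 162 CPM in WT mice. Replicates were separate mice, so the spread between them is biological and technical together. In bulk RNA, a different share of cycling cells and a different amount of histone mRNA per cell cannot be told apart.

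Most of the histone genes were read at higher levels in mutants 1 and 2 than in the WT mice, while mutant mouse 3 mostly lay within the WT range, and no member passed edgeR's test over all genes. Of the 68 members, 49 had 10 or more counts in 3 or more libraries and were tested: 5 H1, 11 H2A, 14 H2B, 10 H3 and 9 H4 genes. The log2 fold change, mutant over WT, was positive for 43 of these 49, against 50.2% of all 12713 genes tested. The median over the 49 was 1.56, against 0.00 over all genes. In edgeR's quasi-likelihood test with Benjamini-Hochberg adjustment over all genes, at an adjusted p under 0.05, 0 members were higher, with 0.0% of all genes, and 0 were lower, with 0.0% of all genes. At an unadjusted p under 0.05, 11 members were higher, where 3.42% of all genes were higher, and 0 were lower, where 3.13% of all genes were lower. DESeq2 called 1 member higher at an adjusted p under 0.05, Hist1h1a (adjusted p = 0.00928), where it called 0.811% of genes higher, and 0 lower, where it called 0.543% lower. The smallest edgeR adjusted p among the members was 0.391, also for Hist1h1a.

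All 68 genes together made up 0.0909%, 0.116% and 0.0451% of counts in mutants 1, 2 and 3, and 0.0349%, 0.0937% and 0.0410% in WT mice 1, 2 and 3. Their summed level was 914, 1283 and 440 CPM in mutants 1, 2 and 3, against 330, 940 and 398 CPM in WT mice 1, 2 and 3. Mutant mouse 2 was highest, WT mouse 2 came next just above mutant mouse 1, and mutant mouse 3 lay inside the WT range. The mean was 879 ± 423 CPM in mutant mice and 556 ± 334 CPM in WT mice (SD over 3 mice each), a ratio of 1.58, and the difference between the means was smaller than either SD.

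**Figure D1:**
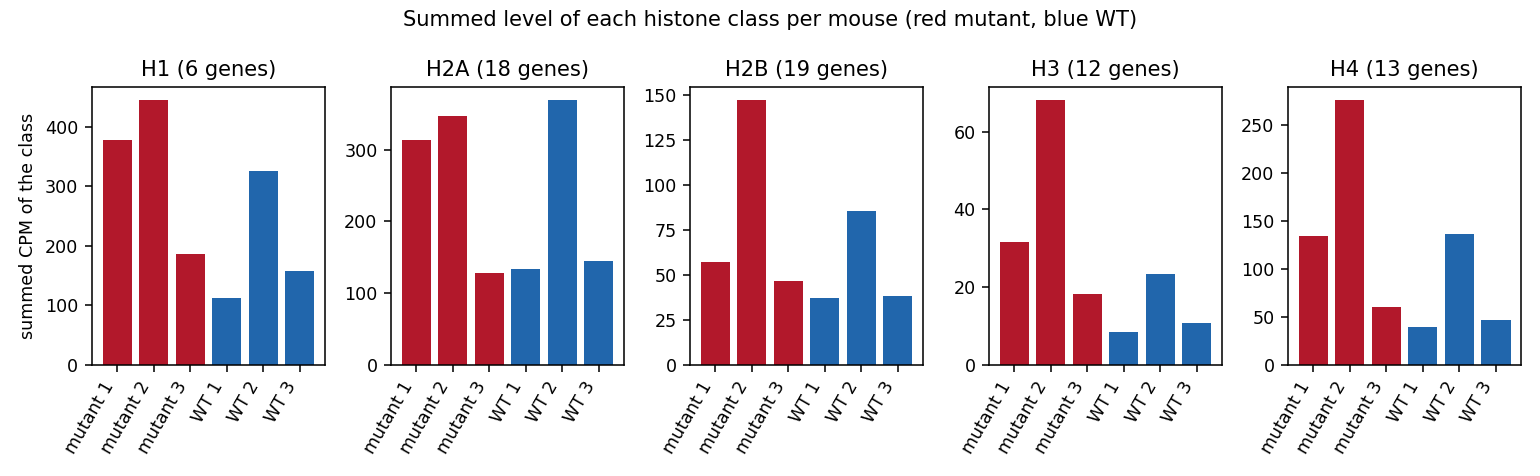
Summed CPM of all genes of each histone class (vertical axis, linear from 0, each panel with its own scale), 1 bar per mouse, mutant mice in red and WT mice in blue. In H1, H3 and H4 the bars of mutant mice 1 and 2 stand tall and WT mouse 2 is the tallest WT bar; in H2A WT mouse 2, at 369 CPM, is the tallest bar of all.

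The order of the mice was nearly the same from gene to gene. Mutant mouse 2 had the highest CPM for 39 of the 49 tested members, against 28.8% of all genes tested. WT mouse 1 had the lowest for 34, against 22.9% of all genes. Mutant mice 1 and 2 both stood above all 3 WT mice for 32 members, against 10.6% of all genes, while mutant mouse 3 lay within the WT range for 35, against 53.9% of all genes. All 3 mutant mice stood above all 3 WT mice for 9 members (6.87% of all genes), and all 3 below for 0 (7.67% of all genes). The 9 were Hist1h1a, Hist1h2ah, Hist1h2be, Hist1h2bg, Hist1h2bh, Hist1h2bp, Hist1h3e, Hist1h3f and Hist1h4n. Of these, Hist1h2bh passed the count filter through its mutant libraries alone, which favoured its place here.

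Set against each WT mouse in turn, the median log2 ratio of the 49 members was 2.11, 0.37 and 1.44 for mutant mouse 1 over WT mice 1, 2 and 3. It was 3.56, 1.59 and 2.5 for mutant mouse 2 over the same WT mice, and 1.28, -0.70 and 0.54 for mutant mouse 3. Mutant mouse 3 thus stood above WT mice 1 and 3 and below WT mouse 2, where only 11 of the 49 members were higher.

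**Figure D2:**
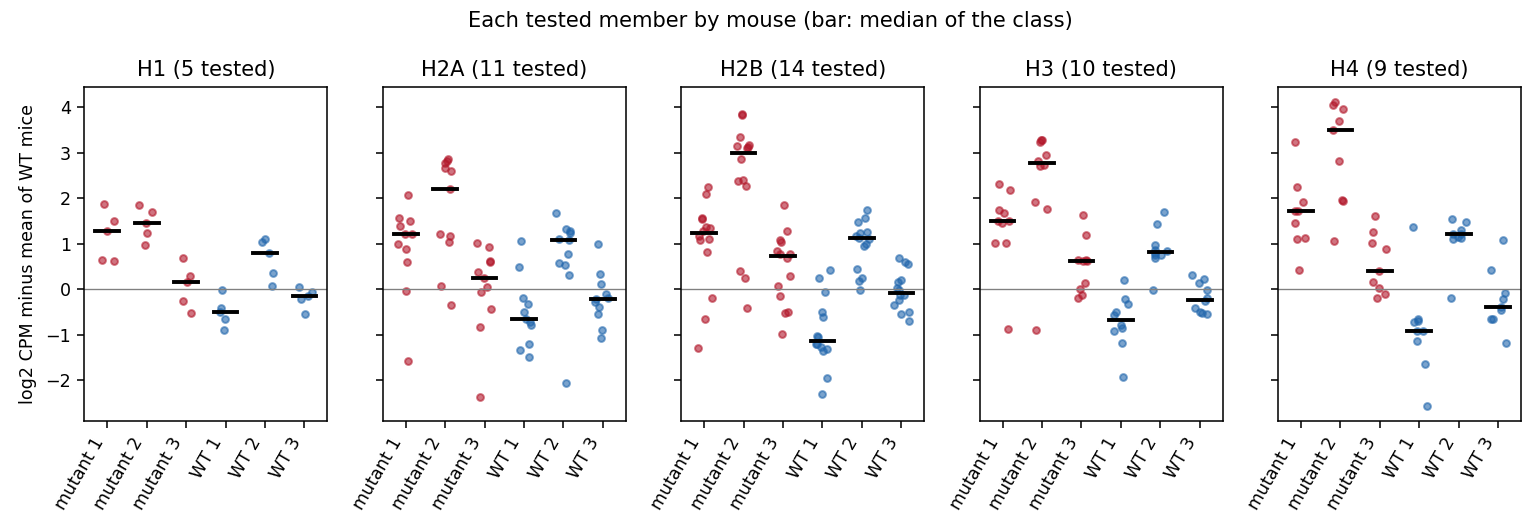
Each point is 1 tested member in 1 mouse, as log2 CPM minus the mean of that gene over the WT mice (vertical axis), with mutant mice in red, WT mice in blue and a bar at the class median. The H4 medians are 1.72, 3.49 and 0.40 in mutants 1, 2 and 3 and -0.91, 1.21 and -0.39 in WT mice 1, 2 and 3, the widest spread of the 5 classes.

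Linker histone H1 compacts chromatin by binding where DNA enters and leaves the nucleosome. Its members summed to 378, 445 and 187 CPM in mutants 1, 2 and 3, against 112, 326 and 158 CPM in WT mice 1, 2 and 3. All 5 tested H1 genes had a positive log2 fold change, from 0.30 to 1.58, and their median of 0.97 was the lowest of the classes. Mutant mice 1 and 2 lay above every WT mouse in the sum, and mutant mouse 3 lay between WT mice 3 and 2.

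Hist1h1a (chr13:23763668-23764412, RefSeq coordinates on GRCm38.p6, as for all genes below), which encodes H1.1, had the smallest p of all members, and none of its 50-base transcript windows occurred in another member. It was read at 25.0, 24.6 and 10.9 CPM in mutants 1, 2 and 3, against 6.69, 7.09 and 6.47 CPM in WT mice 1, 2 and 3. Every mutant mouse stood above every WT mouse, and the WT mice were close together, WT mouse 2 included. The mean was 20.2 ± 8.02 CPM over the 3 mutants and 6.75 ± 0.315 CPM over the 3 WT mice (SD). Its log2 fold change was 1.58 ± 0.37 (SE) with an unadjusted p of 0.0026 and an adjusted p of 0.391 by edgeR's quasi-likelihood test.

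Hist1h1b, which encodes H1.5, held most of the H1 signal per length, between 67.7% and 73.5% of the class's summed FPKM in every mouse. FPKM is the count scaled by gene length and library total, as the authors deposited it. Of the class's counts, Hist1h1b held 43.1% to 53.1%. It was read at 293, 299 and 152 FPKM in mutants 1, 2 and 3, against 81.4, 209 and 112 FPKM in WT mice 1, 2 and 3. Mutant mice 1 and 2 exceeded all WT mice, and mutant mouse 3 lay below WT mouse 2. The log2 fold change was 0.97 ± 0.43 (edgeR adjusted p = 0.761).

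Hist1h1e (H1.4) was at 98.9, 124 and 53.4 CPM in mutants 1, 2 and 3 and at 34.2, 136 and 55 CPM in WT mice 1, 2 and 3, with WT mouse 2 the highest of all 6. Its log2 fold change of 0.30 ± 0.51 was the lowest in H1. Hist1h1c (H1.2), one of the few members also known to give a polyadenylated mRNA, was at 22.6, 34.6 and 10.1 CPM in mutants 1, 2 and 3 and at 10.9, 18.7 and 15.2 CPM in WT mice 1, 2 and 3. The lowest and the 2 highest values of Hist1h1c were all from mutant mice, and the fold change of 0.59 ± 0.44 did not pass (edgeR adjusted p = 0.876). Hist1h1t, the testis form of H1, had 0 counts in all 6 libraries, which allows at most 3 counts, or 0.146 to 0.195 CPM per library.

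H2A pairs with H2B at the faces of the nucleosome. The H2A genes summed to 313, 347 and 128 CPM in mutants 1, 2 and 3, against 134, 369 and 145 CPM in WT mice 1, 2 and 3. Here WT mouse 2 was highest and mutant mouse 3 was lowest, and the ratio of means, 1.22, was the smallest of the classes. The place of mutant mouse 3 rested on Hist1h2ak, described below. Without that gene the sums were 309, 334 and 125.5 CPM in mutants 1, 2 and 3. In WT mice 1, 2 and 3 they were 108, 365.5 and 120 CPM. Mutant mouse 3 then stood above WT mice 1 and 3, and the ratio of means was 1.3. Of 11 tested H2A genes, 9 had a positive log2 fold change, the median was 1.41, and 0 had an unadjusted p under 0.05 (3.42% of all genes were higher and 3.13% lower).

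Hist1h2ae (chr13:23570663-23571220) led the H2A signal, with 45.8% to 77.1% of the class's FPKM. It was read at 220, 225 and 81.4 CPM in mutants 1, 2 and 3, against 63.9, 276 and 75.6 CPM in WT mice 1, 2 and 3. The genotypes overlapped fully, with mutant mouse 3 near WT mice 1 and 3 and WT mouse 2 on top. Its value of 0.34 ± 0.60 on the log2 scale did not pass (edgeR adjusted p = 0.938). Hist2h2ab, with the highest log2 fold change in H2A (1.97 ± 0.89, unadjusted p = 0.0582), rested on few reads, 17, 36 and 11 counts in mutants 1, 2 and 3 against 3, 10 and 4 counts in WT mice 1, 2 and 3.

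Hist1h2ak (chr13:21753377-21753912) went the other way and did so in particular mice. It had 76, 202 and 42 counts in mutants 1, 2 and 3, against 531, 45 and 504 counts in WT mice 1, 2 and 3. WT mice 1 and 3 were about alike and far above the rest, while WT mouse 2 was as low as mutant mouse 3. It made up 33.1% and 28.7% of H2A FPKM in WT mice 1 and 3, and 1.47% to 6.14% in the other 4 libraries. The log2 fold change was -1.46 ± 0.86 (edgeR adjusted p = 0.844), and without Hist1h2ak the H2A median was 1.43. With both mice numbered 2 left out, its log2 fold change was -2.98 (unadjusted p = 4.57e-05 by edgeR), and no member was lower at an adjusted p under 0.05 in that fit either. In the GENCODE annotation it overlaps Gm44454, a predicted microRNA gene on the opposite strand, and the strand setting of the counting is not given in the sources used here.

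H2B genes, the partners of H2A, summed to 57.0, 147 and 46.3 CPM in mutants 1, 2 and 3, against 37.4, 85.5 and 38.2 CPM in WT mice 1, 2 and 3. Of 14 tested H2B genes 11 had a positive log2 fold change, 4 were higher at an unadjusted p under 0.05 (3.42% of all genes), and the median was 1.59. The other 3 were negative, Hist1h2bc at -0.41, Hist3h2ba at -0.44 and Hist2h2be at -0.45.

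Hist1h2bm (chr13:21722044-21722526), the H2B gene with the smallest p, was read at 5.49, 19.3 and 3.38 CPM in mutants 1, 2 and 3, against 0.776, 4.23 and 1.90 CPM in WT mice 1, 2 and 3. Mutant mouse 2 stood far above, and mutant mouse 3 lay between WT mice 3 and 2. The log2 fold change was 2.03 ± 0.82 with an unadjusted p of 0.0377 and an adjusted p of 0.722 by edgeR. Hist1h2bh had the highest H2B log2 fold change (2.61 ± 1.14), from 16, 46 and 13 counts in mutants 1, 2 and 3 against 0, 7 and 6 counts in WT mice 1, 2 and 3, with no overlap between genotypes.

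Hist1h2bc (chr13:23684199-23692480) and Hist2h2be (chr3:96221072-96223738) are, like Hist1h1c, known also as polyadenylated transcripts, and their gene models have no stem-loop match here. Hist1h2bc was read at 13.9, 25.7 and 15.5 CPM in mutants 1, 2 and 3, against 14.3, 42.0 and 17.1 CPM in WT mice 1, 2 and 3. WT mouse 2 was highest and the other mice of both genotypes overlapped. Hist2h2be was read at 9.15, 7.81 and 7.26 CPM in mutants 1, 2 and 3, against 14.1, 12.4 and 6.47 CPM in WT mice 1, 2 and 3. Their log2 fold changes were -0.41 ± 0.45 and -0.45 ± 0.37 (edgeR adjusted p = 0.908 and 0.889). Within the class, Hist1h2bc held 20.4%, 12.1% and 29.6% of H2B FPKM in mutants 1, 2 and 3, against 46.7%, 44.8% and 42.8% in WT mice 1, 2 and 3, without overlap, while Hist1h2bj held 14.9%, 27.9% and 16.4% in the mutants, against 4.86%, 12.1% and 9.07% in the WT mice. Hist1h2ba and Hist1h2aa, the germ-cell H2B and H2A genes that form a divergent pair, had 0 counts in all 6 libraries.

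The divergent pairs were not always on the same side of 0. Of 13 pairs, 8 had both genes tested, and in 5 of the 8 both had a positive log2 fold change. Hist1h2ag and its partner Hist1h2bj had 1.51 and 2.25, and Hist1h2ak and Hist1h2bn had -1.46 and 2.24. Hist2h2ac and Hist2h2be had 1.5 and -0.45, and Hist1h2ac and Hist1h2bc had 0.68 and -0.41. Hist1h2bn had 36, 56 and 7 counts in mutants 1, 2 and 3 and 5, 12 and 5 counts in WT mice 1, 2 and 3. Each pair shares the bases between its starts, as in the promoters shown above, and the difference between partners was not tested.

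Histone H3 carries most of the well-known lysine marks. The H3 genes summed to 31.5, 68.0 and 18.3 CPM in mutants 1, 2 and 3, against 8.49, 23.5 and 10.8 CPM in WT mice 1, 2 and 3. The ratio of means was 2.75, the largest of the classes, yet mutant mouse 3 lay below WT mouse 2. Of 10 tested H3 genes, 9 had a positive log2 fold change, 3 were higher at an unadjusted p under 0.05 (3.42% of all genes), and the median was 1.77.

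Hist1h3e (chr13:23561475-23562385) was read at 3.98, 11 and 4.32 CPM in mutants 1, 2 and 3, against 1.16, 2.34 and 0.924 CPM in WT mice 1, 2 and 3. Every mutant mouse was above every WT mouse, mutant mouse 3 included. Its log2 fold change was 2.12 ± 0.61 with an unadjusted p of 0.00849 and an adjusted p of 0.502 by edgeR. Only 26.6% of its 50-base transcript windows occurred in no other member, so its reads may be shared. Hist1h3a had the highest H3 log2 fold change, 2.34 ± 0.90 (edgeR adjusted p = 0.698), carried by 3.71 and 7.35 CPM in mutant mice 1 and 2, with 0.610 CPM in mutant mouse 3 and 0.485, 1.24 and 0.584 CPM in WT mice 1, 2 and 3. Hist1h3i led the class in FPKM and had a log2 fold change of 0.91 ± 0.62. Hist2h3c1 was the H3 gene with a negative value, -0.20 ± 0.69, and mutant mouse 3 was its highest library.

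Histone H4 is the most uniform of the core histones in sequence. The H4 genes summed to 134, 276 and 60.5 CPM in mutants 1, 2 and 3, against 39.1, 136 and 46.8 CPM in WT mice 1, 2 and 3. All 9 tested H4 genes had a positive log2 fold change, from 0.47 to 2.69, and their median of 2.11 was the highest of the classes. Mutant mouse 1 and WT mouse 2 were level, mutant mouse 2 was above both, and mutant mouse 3 was close to WT mice 1 and 3.

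Hist1h4d (chr13:23581568-23581969) held 73.3% to 87.1% of H4 FPKM in every mouse. It was read at 332, 537 and 140 FPKM in mutants 1, 2 and 3, against 101, 345 and 118 FPKM in WT mice 1, 2 and 3, with a log2 fold change of 0.94 ± 0.62 (edgeR adjusted p = 0.866). Mutant mouse 2 was highest, and mutant mouse 1 lay just under WT mouse 2. Hist1h4c (chr13:23698084-23698458) was read at 6.46, 23.6 and 2.72 CPM in mutants 1, 2 and 3, against 0.679, 3.97 and 0.827 CPM in WT mice 1, 2 and 3. For Hist1h4c the log2 fold change was 2.60 ± 0.97 with an unadjusted p of 0.0275 and an adjusted p of 0.677 by edgeR. Hist2h4 had the highest value of any member, 2.69 ± 1.06, from 19, 99 and 16 counts in mutants 1, 2 and 3 against 4, 14 and 4 counts in WT mice 1, 2 and 3. Hist4h4, alone on chromosome 6, had the lowest in H4 at 0.47 ± 0.75.

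**Figure D3:**
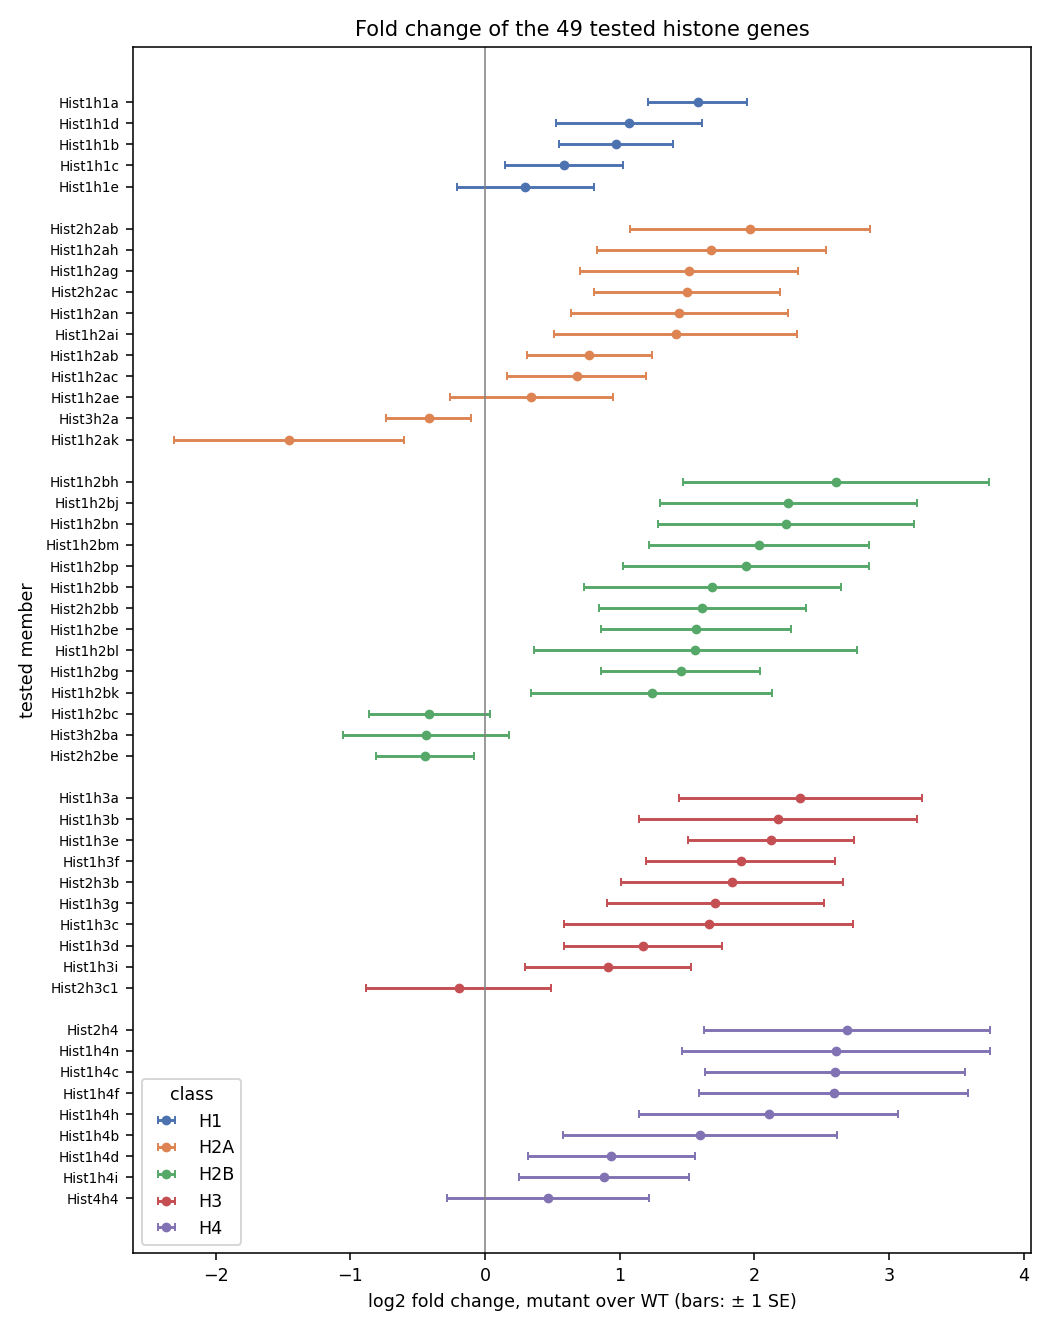
Log2 fold change of each of the 49 tested histone genes, mutant over WT (horizontal axis; point, edgeR estimate; bar, 1 SE either way), grouped and coloured by class. Most points lie right of 0, and 6 lie left of it, Hist1h2ak furthest at -1.46.

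By genomic cluster, the 39 tested genes of the Hist1 cluster on chromosome 13 had a median of 1.57, and the 7 of Hist2 on chromosome 3 a median of 1.61. The 2 tested genes of Hist3 on chromosome 11, Hist3h2a and Hist3h2ba, had -0.42 and -0.44. Of the 19 members not tested, 9 had 0 counts in all 6 libraries and 10 had too few; Hist1h2bq, Hist1h2br, Hist1h2ao, Hist1h2ap, Hist2h2aa1 and Hist2h2aa2 were at 0, and at most 11.3% of their transcript windows were found in no other member. The 32 tested members with at least 50% of windows unique had a median of 1.48, and the 17 below that a median of 1.60.

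Among the tested members, the median log2 fold change fell from shorter to longer genes. The histone classes kept to this order in part. H4 had the shortest median length, 348 bases, and the highest median log2 fold change. H1 had the longest, 1561 bases, and the lowest median log2 fold change. H2A had a shorter median length than H2B and H3 but a lower median log2 fold change. Members of 300 to 420 bases had a median log2 fold change of 1.83 (21 genes), those above that and up to 600 bases 1.66 (11 genes), those up to 1000 bases 0.97 (7 genes) and those up to 3000 bases 0.53 (10 genes). In the same length classes, the other genes had medians of 0.23 (1 to 420 bases, 77 genes), 0.35 (170 genes), 0.20 (725 genes) and 0.04 (5893 genes). Relative to the WT mean, medians of other genes above 420 and up to 600 bases were read per mouse. They were 0.07, 1.11 and -0.10 in mutants 1, 2 and 3. In WT mice 1, 2 and 3 they were -0.55, 0.69 and -0.17. Mutant mouse 2 was highest and WT mouse 1 lowest, as for the histones. WT mouse 2 stood above mutant mouse 1, as in the summed histone level. In the median of the 49 members, mutant mouse 1, at 1.34, stood above WT mouse 2, at 1.08. The 38 ribosomal protein genes, also short, stood at 0.19, 1.22 and -0.05 in mutants 1, 2 and 3 and at -0.50, 0.68 and -0.20 in WT mice 1, 2 and 3. With the trend on length removed from each library, the median of the 49 members was 1.14. The part of gene length in the histone result was not tested further.

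**Figure D4:**
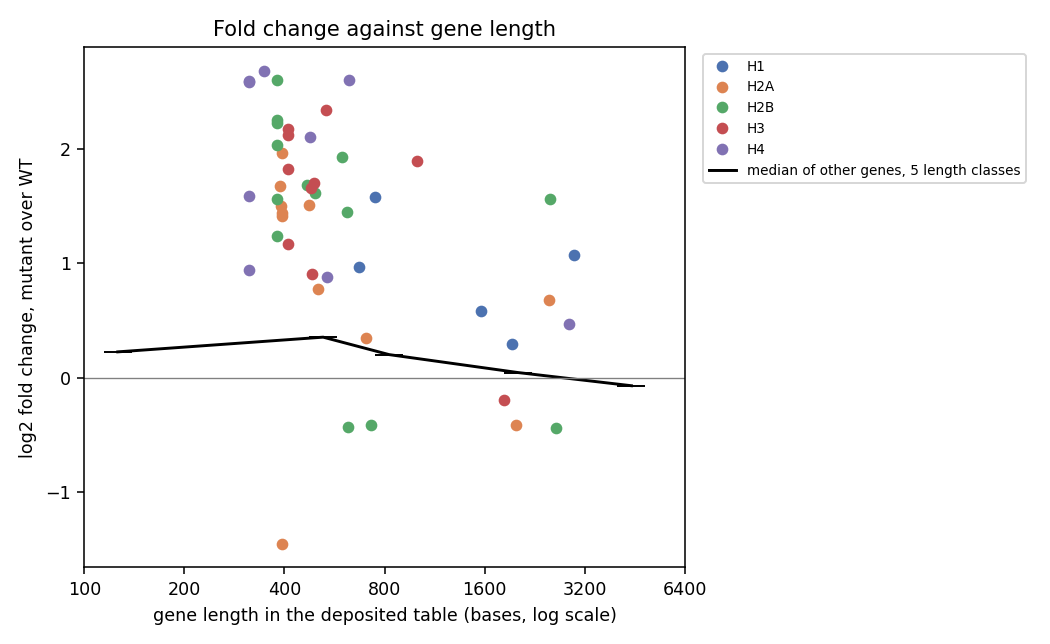
Log2 fold change, mutant over WT, against gene length in the deposited table (log axis, bases), 1 point per tested histone gene coloured by class; the line joins the median of all other genes in 5 length classes. Of the 21 histone genes of 300 to 420 bases, 20 lie above 0, with a median of 1.83, and the line for other genes stays between -0.07 and 0.35.

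The replacement variants, and genes that act on histones and DNA in S phase, had medians close to that of all genes. Of 11 replacement variants, all tested, 6 were positive, with a median of 0.06. H2afz (H2A.Z) was at 956, 1658 and 835 CPM in mutants 1, 2 and 3 and at 656, 1299 and 806 CPM in WT mice 1, 2 and 3 (0.32 ± 0.34), while H3f3a and H3f3b, which encode H3.3, had 0.29 ± 0.29 and 0.06 ± 0.29. H2afj, a replication-independent H2A, was at 221, 657 and 219 CPM in mutants 1, 2 and 3 and at 112, 262 and 154 CPM in WT mice 1, 2 and 3 (1.06 ± 0.50, unadjusted p = 0.0651). H1f0, a linker histone made outside S phase, was at 109, 199 and 122.5 CPM in mutants 1, 2 and 3 against 205, 189 and 200 CPM in WT mice 1, 2 and 3 (-0.46 ± 0.25), with mutant mice 1 and 3 below every WT mouse.

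Of 21 tested genes for histone transcription and mRNA processing, 12 were positive, with a median of 0.01. Npat, the activator of histone loci, had -0.15 ± 0.35 and Slbp, which binds the stem-loop, had -0.08 ± 0.17. Slbp was at 354, 316 and 311 CPM in mutants 1, 2 and 3 and at 314, 373 and 347 CPM in WT mice 1, 2 and 3. E2f1, a driver of S-phase entry, was the 1 gene of the 21 above all WT mice in every mutant mouse, against 6.87% of all genes, with 0.23 ± 0.18. Below all WT mice in every mutant mouse were 0 of the 21, against 7.67% of all genes. In the same way 1 of 38 DNA replication genes stood above and 2 below, and 0 of 22 histone chaperone genes above and 1 below. For histone chaperones the median of 22 genes was 0.01, with Asf1b at -0.40 ± 0.23 and Supt16 at 0.29 ± 0.24.

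The 38 DNA replication genes had a median of 0.01, with 20 positive, and summed to 10657, 10072 and 9686 CPM in mutants 1, 2 and 3, against 10341, 9486 and 10596 CPM in WT mice 1, 2 and 3. Pcna, the replication clamp, was at 264, 362 and 240 CPM in mutants 1, 2 and 3 and at 236, 369 and 280 CPM in WT mice 1, 2 and 3. Mitosis genes had a median of -0.17, with 5 of 20 positive, and Mki67 was at 471, 219 and 266 CPM in mutants 1, 2 and 3 and at 249, 511 and 387 CPM in WT mice 1, 2 and 3. In these 5 lists 0 genes were higher or lower at an unadjusted p under 0.05 by edgeR, where 3.42% of all genes were higher and 3.13% lower.

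Markers of some other cell types differed in level between the genotypes, and their part in the histone levels was not tested. The 10 granulocyte-monocyte progenitor markers were all positive, 9 of them with an unadjusted p under 0.05 (3.42% of all genes higher) and 0 with an adjusted p under 0.05 (smallest 0.296, edgeR), and summed to 6396 to 11552 CPM in mutant mice and 1317 to 3234 CPM in WT mice. The 10 B cell markers were all negative, with sums of 74.3 to 603 CPM in mutant mice and 620 to 1090 CPM in WT mice. Macrophage markers summed to 9.29 to 59.0 CPM in mutant mice and 66.7 to 113 CPM in WT mice. Of the 10 macrophage markers 8 were tested, and the sums cover the 9 with deposited counts. Neutrophil markers summed to 37.6 to 142 CPM in mutant mice and 15.1 to 160 CPM in WT mice over 9. Of the 11 erythroid markers 5 were tested, and the sums cover the 9 with deposited counts. These sums were 65.1 to 116 CPM in mutant mice and 44.0 to 90.5 CPM in WT mice. Hba-a1 and Hba-a2 were at 0 counts in all libraries. Of the 9 T and NK cell markers 5 were tested, and the sums cover the 8 with deposited counts. These were 240 to 349 CPM in mutant mice and 174 to 329 CPM in WT mice.

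The histone medians changed with the mice in the fit. Without mutant mouse 2 the median of the 49 members was 0.71, with Hist1h1a and Hist1h3e as the 2 members higher at an unadjusted p under 0.05 (3.0% of all genes) and Hist1h2ak as the 1 lower (3.03%). The same 2 were the only ones higher without WT mouse 1 (2.26% of all genes) or without WT mouse 3 (2.07%), with 0 lower (1.81% and 1.68%). Without WT mouse 2 the median was 2.25, with 30 members higher (3.96%) and Hist1h2ak lower (3.51%), and without mutant mouse 3 there were 25 higher (3.02%) and 0 lower (3.98%). Leaving out both mice numbered 2 gave 1.46, with 18 members higher (5.4%) and Hist1h2ak lower (5.9%). After the length correction above, 18 were higher (5.84%) and 2, Hist1h2ak and Hist1h2bc, were lower (4.79%). With all 6 mice and an unadjusted p under 0.05, DESeq2 had 22 members higher (4.7%) and 0 lower (3.86%). Limma on log2(FPKM + 1) had 18 higher (2.66%) and 0 lower (5.03%) with a median of 1.01, and limma on log2(FPKM + 0.1) had 17 higher (2.64%) and 0 lower (4.81%). Upper-quartile scaling had 9 higher and limma-voom 8, with no share of all genes computed for these fits. Adding sex to the fit gave a median of 0.17, with 0 members higher (1.53%) and 0 lower (1.27%). The 4 females alone gave 0.15, with 0 members higher (2.16%) and 0 lower (2.67%). Both of these rest on mutant mouse 3 for the genotype difference, and in the females, where it is the 1 mutant, the spread came from the WT mice alone and the lone mutant was assumed to vary like them. In these female mice Hist1h1a had 0.68 and Hist1h3e 1.54, while Hist1h4d had -0.46 and Hist1h2ae -0.78.

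**Figure D5:**
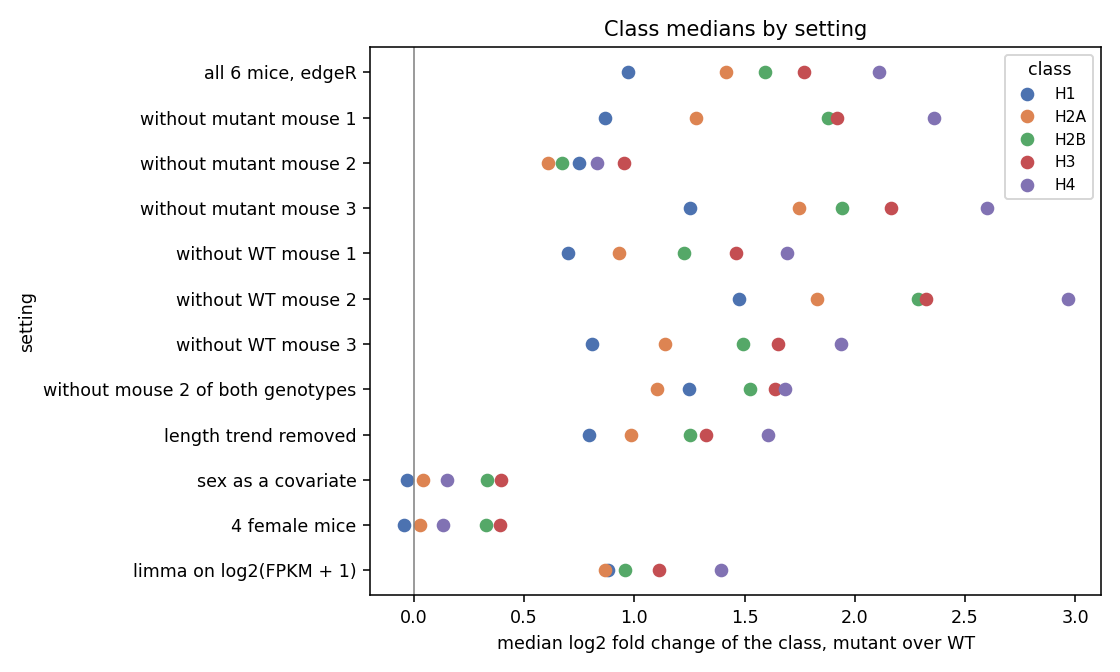
Median log2 fold change, mutant over WT, of each histone class (horizontal axis, 1 point per class) in the settings listed down the page. The medians lie between 0.97 and 2.11 in the edgeR fit of all 6 mice with genotype as the only term, between -0.03 and 0.39 with sex added, between 0.61 and 0.95 without mutant mouse 2, and between -0.05 and 0.39 in the 4 female mice.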

How the data were processed

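Gene counts of 6 LSK libraries, 3 from mutant and 3 from WT mice, were analysed as deposited. The submitters' processing notes name build mm10 and the tools bcl2fastq (2.17), STAR (2.5.2b) and featureCounts (1.5.0-p3). How featureCounts treated strand and multi-mapping reads, and on which annotation, is not given in the sources used, so values of near-identical or overlapping histone genes are uncertain. The authors also deposited FPKM, which equalled the count over length and library sum within rounding.

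The members and all gene lists were chosen with earlier results of these data known. Of 23420 genes, 12713 had 10 or more counts in 3 or more libraries and were tested in 1 fit with edgeR 4.0.16 (R 4.3.3): TMM scaling, genotype as the only term, a two-sided quasi-likelihood F test, and Benjamini-Hochberg adjustment over all genes at 0.05. The SE was derived from the F statistic. CPM is the count relative to the TMM-scaled library size, and log2 CPM had a prior count of 1. Floors of 3 counts cover counting error only. Named from each class were the member with the smallest p, the highest mean FPKM, and the lowest and highest log2 fold change, plus Hist1h1c, Hist1h2bc, Hist2h2be, the germ-cell members and, per gene list, the 3 smallest p; others were named after their values were seen. Lists are given by counts and medians only.

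Alternatives were other scalings, DESeq2 1.42.0, limma 3.58.1 (voom, and log2(FPKM + 1) or log2(FPKM + 0.1)), other filters, a length correction (lowess span 0.3), sex, and libraries left out; restriction to members with unique sequence was added after seeing the data. The test was checked on simulated counts.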

Additional observations from a re-analysis of the deposited data

How the results depend on the processing

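The median log2 fold change, mutant over WT, of all tested members was 1.56. With all 6 mice it was 1.01 and 1.43 by limma on log2(FPKM + 1) and log2(FPKM + 0.1), 1.14 with the length trend removed, and 1.51 to 1.58 under RLE or upper-quartile scaling and limma-voom. Adding sex to the fit gave 0.17, with H1 at -0.029, H2A 0.042, H2B 0.33, H3 0.39 and H4 0.15; the 4 females alone gave 0.15, with H1 at -0.046, H2A 0.03, H2B 0.33, H3 0.39 and H4 0.14. Leaving out 1 mouse at a time gave 0.71 (without mutant mouse 2) to 2.25 (without WT mouse 2) for all members, 0.70 to 1.48 for H1, 0.61 to 1.83 for H2A, 0.67 to 2.29 for H2B, 0.95 to 2.32 for H3 and 0.83 to 2.97 for H4. No count at an adjusted p under 0.05 differed from 0 except 1 higher by DESeq2. At an unadjusted p under 0.05, against 11 members higher, where 3.42% of all genes were, the count was 22 by DESeq2 (4.7% of all genes in that fit), 18 and 17 by limma on log2(FPKM + 1) and log2(FPKM + 0.1) (2.66% and 2.64%), 18 with the length trend removed (5.84%), 18 without mouse 2 of both genotypes (5.4%), 0 with sex added (1.53%), 0 in the females (2.16%), and 2 to 30 with 1 mouse left out (30 without WT mouse 2; 25 without mutant mouse 3; 2 without mutant 2, WT mouse 1 or WT mouse 3). Upper-quartile scaling gave a count of 9 higher and limma-voom 8, with no share of all genes computed for these fits. Against 0 lower, the count was 2 with the length trend removed, 1 without mouse 2 of both genotypes, and 0 to 1 with 1 mouse left out. Of 361 values of 19 named members, 22 changed sign. With sex added, then in the females alone, these were Hist1h1c (-0.56, -0.57), Hist1h1e (-0.49, -0.51), Hist1h2ae (-0.76, -0.78), Hist1h3a (-0.32, -0.33), Hist1h3i (-0.30, -0.31), Hist1h4d (-0.44, -0.46), Hist4h4 (-0.22, -0.24) and Hist2h3c1 (0.65, 0.63). Hist2h3c1 was also 0.039 without mouse 2 of both genotypes. With 1 mouse left out, Hist2h3c1 ranged over -0.94 to 0.065, Hist1h1e -0.049 to 1.05, Hist1h2ae -0.00 to 1.33 and Hist1h2bc -0.73 to 0.23, with the changed signs without mutants 1 or 2, WT mouse 1, WT mouse 1 and WT mouse 2. The cause of these differences was not tested. With mouse number as a replicate block, 23 members were higher at an unadjusted p under 0.05, where 6.95% of all genes were; same-numbered mice correlated at 0.101, 0.34 and 0.0745 over all genes, and mutant mouse 1 correlated best with WT mouse 3 (0.127), so the numbers are not taken to pair the mice. Depth limits the genes with few counts, such as Hist2h2ab and Hist2h4.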

Other observations

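The balance between replication-dependent and replacement genes was also read per length. For H3, the replication-dependent genes made up 6.70%, 8.65% and 4.22% of their FPKM summed with H3f3a and H3f3b in mutants 1, 2 and 3, against 2.01%, 3.69% and 2.25% in WT mice 1, 2 and 3. In this share every mutant mouse was above every WT mouse, mutant mouse 3 included. The replication-dependent sum itself was 37.2 FPKM in mutant mouse 3, inside the WT range of 16.7 to 47.8 FPKM. Most H3 signal read in all 6 libraries came from the H3.3 genes. Replication-dependent mRNAs mostly lack a poly(A) tail, and how fully such RNAs entered the libraries was not tested. The shares may thus differ from those in the cells. For H1, the share set against H1f0 and H1fx was 84.7%, 77.7% and 72.4% in mutants 1, 2 and 3. WT mice 1, 2 and 3 had 49.3%, 68.4% and 57.5%, again without overlap. Mutant mouse 3 had a replication-dependent H1 sum of 206.1 FPKM, inside the WT range of 119.9 to 308.1 FPKM. Mutants 1 and 2, at 402.3 and 418.6 FPKM, stood above that range. The sum of H1f0 and H1fx was lower in every mutant mouse, at 72.8 to 119.9 FPKM, than in any WT mouse. Its WT range was 120.4 to 142.1 FPKM, so mutant mouse 2 lay just below it. For H2A, set against its 6 replacement genes, the shares overlapped, at 11.5%, 10.5% and 6.27% in mutants 1, 2 and 3 and 7.02%, 10.1% and 6.43% in WT mice 1, 2 and 3. These shares are sums over chosen genes, are described without a test, and do not depend on library depth.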
